A study of Ovis aries with 16 samples.

Results

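SST, NPPC and BRS3 encode parts of peptide signaling: the precursor of the hormone somatostatin, the precursor of C-type natriuretic peptide, and bombesin receptor subtype 3. They were read on one-color arrays of hippocampus from late-gestation fetal sheep, by every probe whose gene name or description in the scanner files names one of them. That gave 6 probes, 2 for each of the 3 genes, among 15008 probes and 1032 gene names on the array. The genes were chosen with earlier results of these data in view: SST was selected on its level in hypoxia control against normoxia control, NPPC on hypoxia plus ketamine against normoxia plus ketamine, and BRS3 on hypoxia plus ketamine against both normoxia plus ketamine and hypoxia control. In those comparisons the values below are a description and carry no test.

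The study asked how transient hypoxia and ketamine, an anesthetic that blocks NMDA-type glutamate receptors, alter gene expression in the fetal brain. Chronically catheterized fetuses underwent 30 min of maternal ventilatory hypoxia or of normoxia, and the hippocampus was taken 24 h after the onset, following 23.5 h of normoxic recovery. The groups were normoxia control (NC, no ketamine, n = 3), normoxia plus ketamine (NK, 3 mg/kg intravenously before the stimulus, n = 4), hypoxia control (HC, no ketamine, n = 5) and hypoxia plus ketamine (HK, the same dose before hypoxia, n = 4). All fetuses carried surgical catheters, and each array held the RNA of 1 fetus. Most fetuses were twins and the labels do not say which shared a ewe, so p-values here measure the spread between these 16 samples. The arrays lay on 2 slides of 8, where slide 1 held replicates 1 and 2 of each group and slide 2 held the rest.

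Somatostatin is released by a class of inhibitory interneurons in the hippocampus and acts on a family of inhibitory G protein-coupled receptors, SSTR1 to SSTR5. C-type natriuretic peptide raises cyclic GMP in its target cells through a receptor that is itself a guanylyl cyclase, and is made in brain and in endothelium. BRS3 is a G protein-coupled receptor related to the receptors of gastrin-releasing peptide and neuromedin B, has no established natural ligand, and is known mainly from the hypothalamus, where it takes part in energy balance.

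The probes decide what each value can tell. The brightest probe of each gene is shown because the results rest on it, with capitals for the bases it shares with the gene's other probe.
SST probe A_70_P051297: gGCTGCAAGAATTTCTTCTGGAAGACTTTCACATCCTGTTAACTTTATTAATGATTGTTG
NPPC probe A_70_P051316: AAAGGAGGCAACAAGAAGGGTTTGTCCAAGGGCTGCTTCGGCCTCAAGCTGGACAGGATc
BRS3 probe A_70_P030117: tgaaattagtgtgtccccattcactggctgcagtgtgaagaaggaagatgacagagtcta
The other SST probe, A_70_P051296, and the other NPPC probe, A_70_P051317, are each shifted by 1 base and share 59 of 60 bases with the probe shown. They are therefore repeat measurements of nearly the same target. The other BRS3 probe, A_70_P030116, starts 65 bases away and shares no stretch with the probe shown, so it reads a separate piece of the transcript. G and C make up 35.0% of the SST probe, 55.0% of the NPPC probe and 45.0% of the BRS3 probe.

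Levels are given as log2 of the background-subtracted intensity minus the 75th percentile of the array, so that 0 is the level of a probe at that percentile. Before scaling, the percentile lay between 882 and 1199 intensity units. The share of spots well above background was between 76.7% and 82.6% per array, a mark the scanner software sets at 13 standard deviations of the background. The precision of each value is limited by the number of arrays.

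One array stood apart. HC replicate 5 had the lowest of the 16 values for 14.0% of 12455 probes and the highest for 12.3%, where an even share is 6.25%. For the other 15 arrays the shares of lowest values lay between 3.09% and 8.39%, and those of highest values between 3.09% and 8.19%. Its mean correlation with the other arrays over probes was 0.973, the lowest of 16, but the highest was only 0.981. HK replicate 2 came next, at 0.974. On HC replicate 5 the signal of NEUROD1, a transcription factor of hippocampal granule neurons, was -5.91 on the log2 scale, while the other 15 arrays lay between -1.31 and 2.03. GRIN1, GRIA1, GRIA2 and GRIA3, subunits of glutamate receptors, were also lowest there. Differences of the brightest probes of SST, NPPC and BRS3 that rest on this array are therefore given with and without it, as are the calls of list genes at the criterion.

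SST, the somatostatin precursor, was well above background with both probes on all 16 arrays. The log2 level of SST in NC was 4.72, 4.67 and 4.96 in replicates 1 to 3. In NK it was 4.83, 4.60, 5.19 and 4.40 in replicates 1 to 4. Both normoxic groups lay in one band and overlapped. In HC the log2 level was 5.01, 4.51, 4.20, 5.04 and 1.86 in replicates 1 to 5. In HK it was 5.17, 5.07, 5.18 and 5.22 in replicates 1 to 4. The low value was HC replicate 5 alone, the other HC arrays lay within the normoxic band or, for replicate 3, below it, and the HK arrays were tightly grouped at its upper edge. The HK values all lay above the HC values, by a small margin, and overlapped with NK through NK replicate 3.

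**Figure D1:**
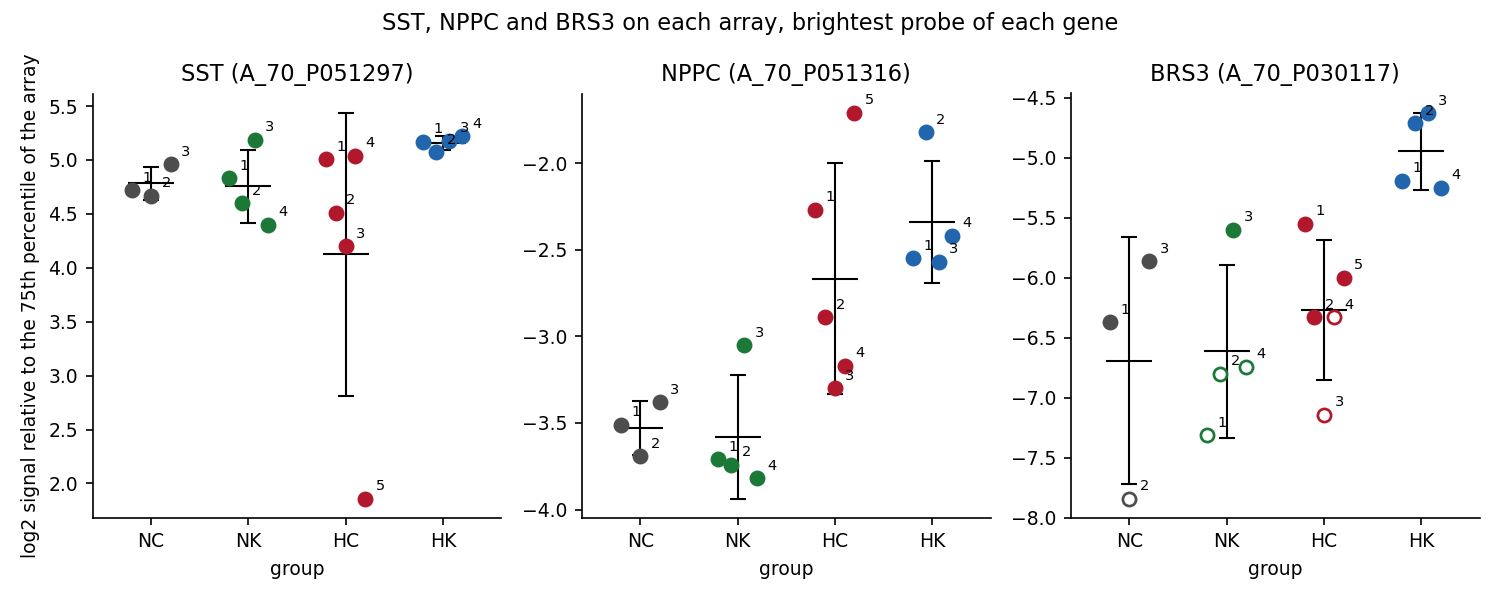
Log2 signal relative to the 75th percentile of the array (vertical axis) for the brightest probe of SST, NPPC and BRS3 in each group (horizontal axis). Each point is an array with its replicate number, filled where the probe was well above background and open where it was not, and the bars are mean ± SD. SST falls to 1.86 on HC replicate 5 alone, NPPC lies higher in HC and HK than in NC, and BRS3 is well above background on all 4 arrays only in HK.

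The mean log2 level of SST was 4.78 ± 0.15 (SD, n = 3) in NC, 4.76 ± 0.34 (n = 4) in NK, 4.13 ± 1.31 (n = 5) in HC and 5.16 ± 0.06 (n = 4) in HK. In order, HK was highest, NC and NK were 0.03 apart and HC was lowest. HK values lay apart from those of HC and NC, and the other pairs of groups overlapped. Of all 12543 probes tested, 0.973% had HK and HC apart, but HC took part in the choice of SST, so nothing is read from this. The log2 difference of HC minus NC, by which SST was chosen, was -0.66 (SE 0.53). Without HC replicate 5 it was -0.09 (SE 0.21), and it was 0.07 on the first slide and -1.26 on the second, which holds that array. In bulk tissue, fewer cells that make a transcript and less of it in each cell cannot be told apart.

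The comparison of HK with NK uses none of the arrays that chose SST, and it asks whether SST differed with hypoxia when ketamine had been given. It is not fully independent of the choice, since same-numbered arrays of NC and NK, and of HC and HK, partly deviated together. The log2 difference was 0.40 (95% confidence interval -0.69 to 1.50), a 1.32-fold higher mean in HK. Its adjusted p from the limma fit was 0.986, and the unadjusted p was 0.442. The criterion used throughout is an unadjusted p under 0.05. Across all probes tested, 2.81% were higher and 2.46% lower by it in this comparison, and SST was not among them. An exact two-sided permutation test of the 8 arrays gave p = 0.114, where 0.0286 is the smallest this design allows. The spread in the fit is shared between all groups and includes HC replicate 5. With the HK and NK arrays alone in the fit the same difference had an unadjusted p of 0.0422, and with all arrays but HC replicate 5 it was 0.0578. The difference was 0.40 within each slide.

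The remaining differences of SST share arrays with the comparison that chose it. NK minus NC was -0.03 (SE 0.55) on the log2 scale. HK minus HC was 1.03 (SE 0.48), and 0.47 (SE 0.19) without HC replicate 5. The second SST probe followed the first, with log2 differences of -0.66, -0.03, 0.98 and 0.35 for HC-NC, NK-NC, HK-HC and HK-NK, and a level of 1.78 on HC replicate 5.

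Somatostatin receptors came next. Of the 7 genes of the somatostatin system, 4 had probes and were tested: SST itself and the receptors SSTR1, SSTR2 and SSTR5, all well above background on the 16 arrays. At the criterion, 0 of the receptors SSTR1, SSTR2 and SSTR5 were higher and 0 lower in HC-NC, where 4.54% of all probes tested were higher and 6.27% lower. All 4 genes of the list had a negative log2 difference, with a median of -0.52 against -0.03 over all probes tested. SST was chosen on this comparison, so the signs and medians of the list are a description from which nothing is read. The values were -0.38 for SSTR1, -0.70 for SSTR2 and -0.01 for SSTR5, with standard errors of 0.39, 0.44 and 0.24. Without HC replicate 5 the median of the list was -0.06 and 1 of 4 differences was positive; SSTR2 was then called lower in HK-NK, at an unchanged -0.43, as were 401 of 12543 probes.

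That array carried the lowest value of every gene in the list. SSTR1 was at -3.34 on the log2 scale on HC replicate 5, and between -2.50 and -1.16 on the other 15 arrays. SSTR2 was at -1.39 there and between 0.45 and 1.57 elsewhere. SSTR5 was at -4.06, hardly below the -4.05 to -3.04 of the others. SST and its receptors SSTR1 and SSTR2 thus separated HC replicate 5 from the rest, and SSTR5 did not. The same array was low for the neuropeptide NPY, made by interneurons, at 1.57 on the log2 scale against 1.88 to 3.31. Among the receptors HK replicate 2 was the next lowest array for SSTR1 and SSTR2, but its SST level of 5.07 was in the range of the other HK arrays.

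**Figure D2:**
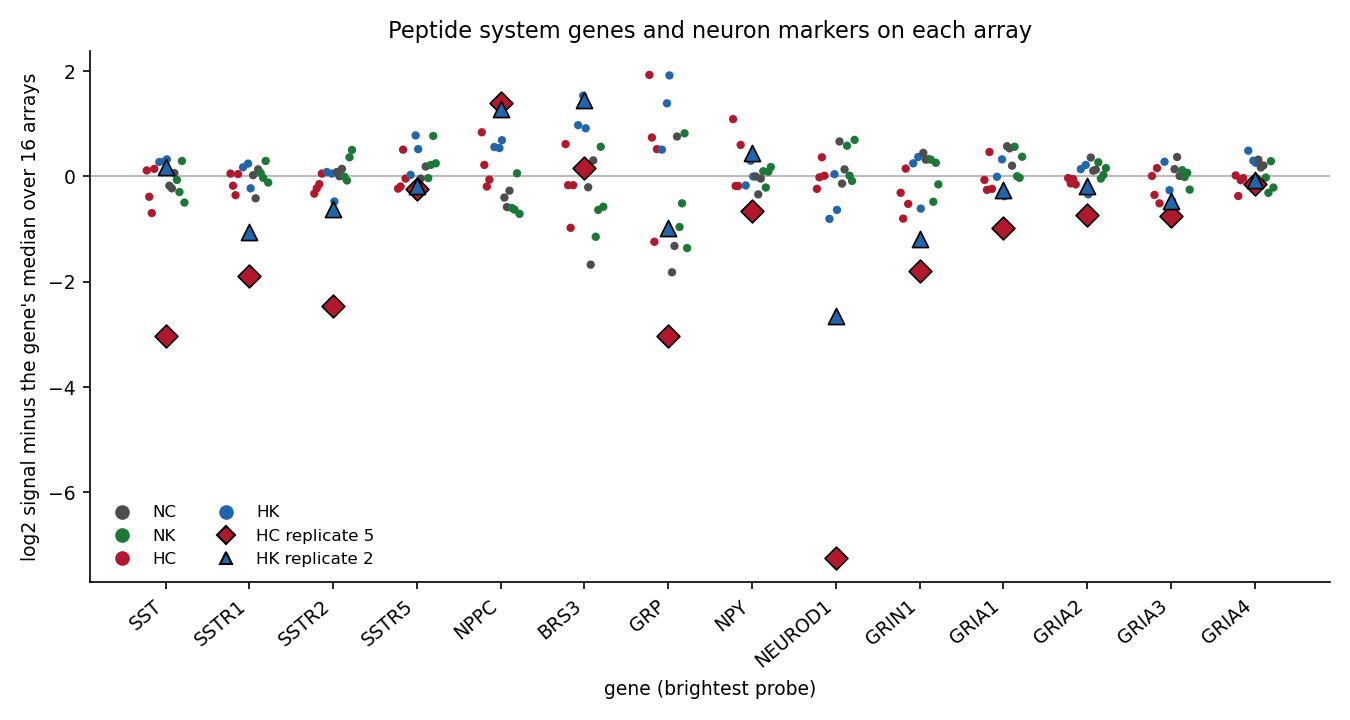
Log2 signal minus the gene's median over the 16 arrays (vertical axis) for genes of the somatostatin and bombesin systems, NPPC, NPY and neuron markers (horizontal axis, brightest probe of each gene). Each point is an array colored by group, the diamond is HC replicate 5 and the triangle HK replicate 2. HC replicate 5 is lowest for SST, SSTR1, SSTR2, GRP and NEUROD1, and highest for NPPC.

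Of 23 markers of hippocampal excitatory neurons and neurons in general, 6 had probes and all 6 were tested. In HC-NC 5 of them fell at the criterion, GRIN1, GRIA1, GRIA2, GRIA3 and GRIA4, and 0 rose, where 6.27% of all probes tested were lower and 4.54% higher; the median log2 difference was -0.56. GRIN1 fell by 1.02 (SE 0.40, limma adjusted p = 0.373) and GRIA1 by 0.65 (SE 0.26, limma adjusted p = 0.378). NEUROD1 was at -1.64 (SE 1.34) and did not pass. Without HC replicate 5, 1 of the 6, GRIA4, was lower, as were 664 of 12543 probes, and the median was -0.35. GRIN1, GRIA1, GRIA2 and GRIA3 were then at -0.74, -0.46, -0.29 and -0.35 and missed the criterion. GRIA4 was also the 1 marker called in HK-HC and in HK-NK, higher in HK by 0.37 and 0.31. In these comparisons 2.86% and 2.81% of all probes tested were higher. In NK-NC 0 of the 6 were called, where 0.710% of all probes tested were higher and 1.07% lower. GRIA4 was at 0.36 in HK-HC without HC replicate 5 and still called. NEUROD1 was called lower there at -1.04, as were 343 of 12543 probes, while with that array it was at 0.41 and not called. In HK-NK, which does not hold that array, the differences stayed at 0.31 and -1.31 while the spread in the fit changed. GRIA4 was then not called, and NEUROD1 was called lower, as were 401 of 12543 probes. In HK-NK 5 of the 6 markers had a negative log2 difference, with a median of -0.25, while that of SST was 0.40.

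The summed linear signal of these 6 markers, relative to the 75th percentile, was 13.6, 11.3 and 11.0 on the NC arrays and 12.9, 9.85, 10.2 and 12.1 on the NK arrays. On the HC arrays it was 9.52, 8.94, 11.3, 8.87 and 4.36, and on the HK arrays 9.94, 6.57, 10.9 and 7.46, in order of replicate. The lowest sum was again that of HC replicate 5, GRIA2 had the brightest probe of the list, and none of the 6 was below the background mark throughout. The list of interneuron markers had NPY alone of 17 genes, at a log2 difference of 0.26 in HC-NC, so the interneurons that make somatostatin could not be followed by other markers. The part of neuron content in the level of SST was not tested.

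NPPC, the precursor of C-type natriuretic peptide, was dim but well above background on all 16 arrays. Its log2 level in NC was -3.51, -3.69 and -3.38 in replicates 1 to 3. In NK it was -3.71, -3.74, -3.05 and -3.82 in replicates 1 to 4. Apart from NK replicate 3 the normoxic arrays lay close together at the low end, and both groups overlapped. In HC the log2 level was -2.27, -2.89, -3.30, -3.17 and -1.71 in replicates 1 to 5. In HK it was -2.55, -1.82, -2.57 and -2.42 in replicates 1 to 4. All HC arrays were above all NC arrays, though HC replicate 3 was so by little, and all HK arrays were above all NK arrays. HC replicate 5 had the highest value of all 16, followed by HK replicate 2, while HC and HK overlapped.

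The mean log2 level of NPPC was -3.53 ± 0.16 (SD, n = 3) in NC, -3.58 ± 0.36 (n = 4) in NK, -2.67 ± 0.67 (n = 5) in HC and -2.34 ± 0.35 (n = 4) in HK. The means of the hypoxic groups were thus above those of the normoxic ones, with neighbors NC and NK, and HC and HK, not separated by their spread. The means of HC and NC come from no array that chose NPPC, and their comparison asks whether hypoxia alone changed it. As for SST, same-numbered arrays partly deviated together, so the comparison is not fully independent of the choice. The log2 difference was 0.86 (95% confidence interval 0.17 to 1.54), which is 1.81-fold higher in HC. NPPC met the criterion, with an unadjusted p of 0.0174, but not the limma adjusted threshold over all probes tested (adjusted p = 0.335). The spread in the fit is shared between all groups, so it draws in part on the NK and HK arrays that chose NPPC. With the HC and NC arrays alone in the limma fit the same difference had an SE of 0.36 and an unadjusted p of 0.0423. The second probe had a log2 difference of 0.86 (limma adjusted p = 0.378). Neither NPPC probe had overlapping groups, as was the case for 7.75% of all probes tested.

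This result did not hold under every alternative. The exact two-sided permutation test gave p = 0.0893, with 0.0179 the smallest possible. The log2 difference was 1.02 on the first slide and 0.65 on the second, where 1 NC array stood against 3 HC arrays and the unadjusted p was 0.356, and 0.86 with slide as a block. Without HC replicate 5 it was 0.62 (unadjusted p = 0.0342), but the second probe, at 0.61, then missed the criterion (unadjusted p = 0.0510). Without NC replicate 2 the brightest probe was at 0.77 and missed the criterion (unadjusted p = 0.0601). With the authors' deposited values it was 0.27 (unadjusted p = 0.0595), and with normexp background correction 0.93 (unadjusted p = 0.138). Normexp also moved the median over all probes in HC-NC, to 0.34 from -0.03. The deposited values of this dim probe ran only from 8.37 to 9.13 over the arrays, and the levels used here from -3.82 to -1.71. Its differences were smaller on the deposited scale, and why it missed the criterion there was not tested.

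NK minus NC, ketamine in normoxia, was -0.05 (SE 0.33) on the log2 scale for NPPC, with overlapping groups. It was 0.61 with normexp background correction, where the median over all probes was 0.28, and 0.01 with the authors' deposited values. This comparison shares the NK arrays with the choice of NPPC and was not tested. In it 0.710% of all probes tested were higher and 1.07% lower at the criterion, and the groups did not overlap for 3.48%. With same-numbered arrays as a random block, 439 probes met the criterion in place of 223. HK minus HC was 0.33 (SE 0.29), and 0.57 (SE 0.24) without HC replicate 5. HK minus NK, on which NPPC was chosen, was 1.24 (SE 0.31), with 1.54 on the first slide and 0.94 on the second. It was 0.60 with normexp background correction and 0.40 with the authors' deposited values. Groups did not overlap for 3.29% of all probes tested in that comparison. Whether hypoxia acted on NPPC differently with ketamine was not tested.

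**Figure D3:**
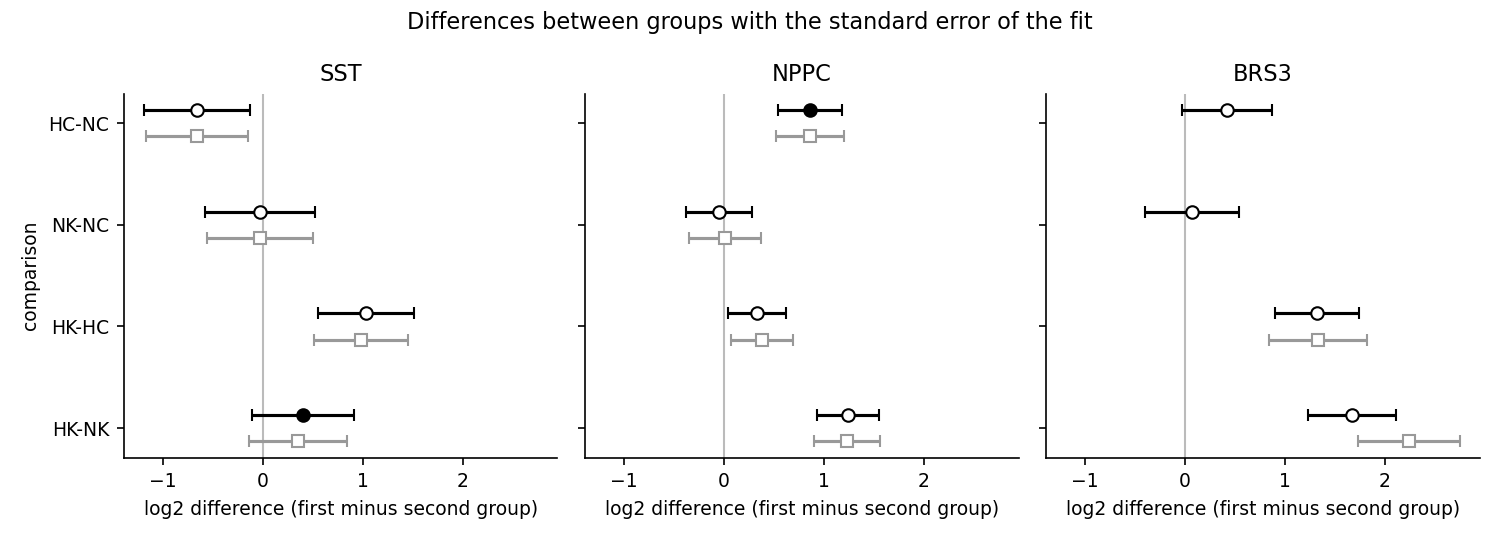
Log2 difference of the first minus the second group (horizontal axis) in each comparison (vertical axis) for SST, NPPC and BRS3, with bars of 1 standard error from the fit. Black circles are the brightest probe and gray squares the other probe. Filled circles mark the comparisons whose groups held no array of the choice, NPPC in HC-NC at 0.86 and SST in HK-NK at 0.40. The pairs of probes give nearly equal differences for SST and NPPC, and the other BRS3 probe is not drawn against NC, where it was not well above background.

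Of the natriuretic peptide and cyclic GMP system, a list of 19 genes, 2 had probes. FURIN, a protease that cleaves peptide precursors, was well above background on 2 of 16 arrays and was not tested, which leaves NPPC as the 1 gene tested. The guanylyl cyclase receptor of the peptide had no named probe.

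Markers of other cells moved in the comparison in which NPPC was higher. Of 12 microglia and macrophage markers 6 had probes and were tested, and 3 rose in HC-NC, FCER1G, FCGR1A and CD14, with 0 lower, where 4.54% of all probes tested were higher. The same 3 were called without HC replicate 5, where 555 of 12543 probes were higher. The median log2 difference of the list was 1.12. It has no exact size, since FCGR2B and CYBB were well above background on 0 NC arrays. CD14, a receptor for bacterial lipopolysaccharide, was higher by 1.97 (SE 0.45, limma adjusted p = 0.149). The summed linear signal of the list was 0.511, 0.600 and 0.643 on the NC arrays and 0.842, 2.16, 1.49, 1.25 and 0.962 on the HC arrays, in order of replicate. On the NK arrays it was 0.550, 0.642, 0.567 and 0.651, and on the HK arrays 0.866, 1.06, 0.583 and 0.767. FCER1G had the brightest probe, and none of the 6 was below the background mark on every array. In HK-HC 2 of the 6 were lower, FCGR1A and CD14, where 1.87% of all probes tested were lower. In NK-NC 0 of the 6 were called, where 0.710% of all probes tested were higher and 1.07% lower. In HK-NK 0 of the 6 were called as well, where 2.81% of all probes tested were higher and 2.46% lower. CD14, at 0.82 in HK-NK either way, was called higher there without HC replicate 5, as were 392 of 12543 probes.

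Of 11 endothelium markers 5 were tested and 1 rose in HC-NC, where 4.54% of all probes tested were higher: SELP, an adhesion receptor for leukocytes, by 4.15 on the log2 scale (SE 0.98, limma adjusted p = 0.168). SELP was also the 1 called in HK-NK, by 2.52, where 2.81% of all probes tested were higher. Without HC replicate 5 it was called lower in HK-HC as well, as were 343 of 12543 probes. In HC-NC the median over the list was 0.08. PECAM1, with the brightest probe, was at 0.08, while KDR, a receptor of vascular endothelial growth factor, was at -0.46 (SE 0.22) and the nitric oxide synthase NOS3 at -0.48 (SE 0.34), and neither met the criterion. The summed linear signal of the list was 1.15, 1.08 and 1.23 on the NC arrays and 2.32, 1.75, 1.76, 3.38 and 1.26 on the HC arrays. It was 0.899, 1.32, 1.33 and 1.13 on the NK arrays and 1.80, 1.83, 1.25 and 1.07 on the HK arrays. With SELP left out the sums ran from 1.03 to 1.22 in NC and from 0.747 to 1.57 in HC, so the groups then overlapped. Of 8 astrocyte markers 3 were tested and 1 rose, GJA1, by 0.46 (SE 0.21, limma adjusted p = 0.454). It was 0.42 (SE 0.23) without HC replicate 5 and missed the criterion. The part of these cell types in the level of NPPC was not tested.

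BRS3, the receptor among the 3 genes, lay near the detection limit. With the brightest probe the log2 level in NC was -6.37, -7.84 and -5.86 in replicates 1 to 3, well above background on 2 of 3 arrays. In NK it was -7.31, -6.80, -5.60 and -6.74 in replicates 1 to 4, well above background on 1 of 4. The normoxic groups overlapped, with NC replicate 2 lowest and NK replicate 3 highest, and values of arrays without the mark have little meaning as levels. In HC the log2 level was -5.55, -6.33, -7.14, -6.33 and -6.00 in replicates 1 to 5, well above background on 3 of 5 arrays. In HK it was -5.19, -4.71, -4.63 and -5.25 in replicates 1 to 4, well above background on all 4. The HK arrays lay above every other array, and the other 3 groups overlapped with each other. Of all probes tested, 0.973% had HK and HC apart and 3.29% had HK and NK apart. BRS3 was chosen on these comparisons, so nothing is read from this.

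The probe 65 bases away was also well above background on every array only in HK, with 0 of 3 NC, 1 of 4 NK, 2 of 5 HC and 4 of 4 HK arrays. Its mean log2 level was -7.79 ± 1.09 (SD, n = 4) in NK, -6.88 ± 0.42 (n = 5) in HC and -5.55 ± 0.26 (n = 4) in HK. For the brightest probe the means of NC, NK, HC and HK were -6.69 ± 1.03, -6.62 ± 0.72, -6.27 ± 0.58 and -4.95 ± 0.32. A probe needed 3 of 16 arrays well above background to be tested, and both BRS3 probes had that number without the HK arrays. Over the 16 arrays the 2 BRS3 probes had r = 0.91, the SST probes 1.00 and the NPPC probes 0.99, described here with no test.

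**Figure D4:**
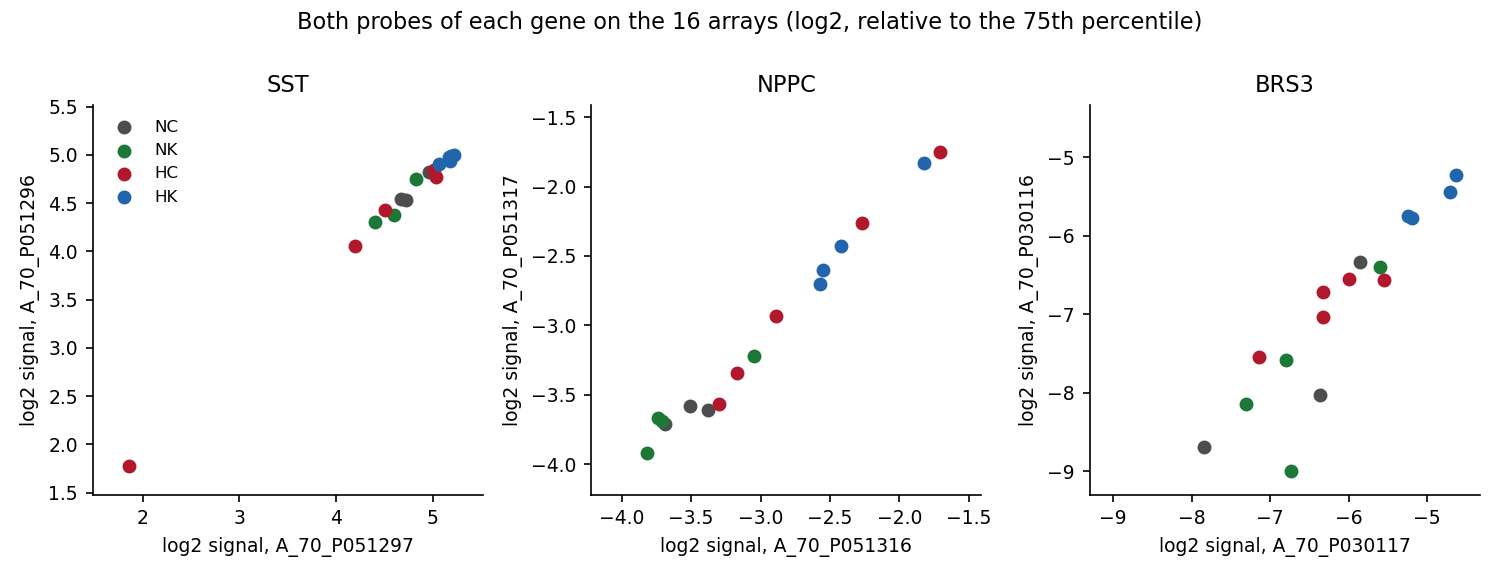
Log2 signal relative to the 75th percentile on the 16 arrays for the brightest probe (horizontal axis) and the other probe (vertical axis) of SST, NPPC and BRS3, colored by group. The SST and NPPC pairs, which share 59 of 60 bases, follow a line, and the BRS3 pair, which shares none, spreads at low signal while its HK arrays stay together at the top.

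The log2 differences of BRS3 by which it was chosen were 1.67 (SE 0.44) for HK minus NK and 1.32 (SE 0.42) for HK minus HC with the brightest probe. With the other probe they were 2.24 (SE 0.51) and 1.33 (SE 0.49). All 4 are differences from groups measured on some arrays only, 1 of 4 NK arrays and 3 or 2 of 5 HC arrays. In HK-HC 2.86% of all probes tested were higher and 1.87% lower at the criterion. Within slides HK minus HC was 0.99 and 1.55 for the brightest probe, and HK minus NK was 1.23 on the second slide. On the first slide neither NK array was well above background, so no difference from NK is given there. Without HC replicate 5 HK minus HC was 1.39 with the brightest probe and 1.42 with the other. The size was smaller under 2 alternatives, and the cause was not tested: HK minus NK was 0.39 with normexp background correction and 0.09 with the authors' deposited values, and HK minus HC was 0.29 and 0.06. With quantile normalization the differences were 1.64 and 1.31.

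For BRS3 hypoxia alone and ketamine alone gave overlapping groups. HC minus NC was 0.42 (SE 0.45) and NK minus NC 0.07 (SE 0.47) on the log2 scale with the brightest probe. Without HC replicate 5 HC minus NC was 0.35 with that probe. HC minus NC was 1.17 on the first slide, where 1 of 2 NC arrays was well above background, and -0.63 on the second, where the 1 NC array was. The other probe was not well above background on any NC array, so no difference from NC is given for it. With normexp background correction the brightest probe gave 1.06 in HC-NC and 0.96 in NK-NC, where the medians over all probes were 0.34 and 0.28. Both comparisons share HC or NK arrays with the choice of BRS3, so no test is given, and a combined action of hypoxia and ketamine was not tested.

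The bombesin system held 2 genes with probes of a list of 5, BRS3 and GRP. GRP, the precursor of gastrin-releasing peptide, was well above background on all arrays and varied widely within groups. Its log2 level was -4.05, -3.55 and -1.47 in NC and -3.19, -2.74, -1.41 and -3.59 in NK. In HC it was -0.30, -1.49, -3.47, -1.71 and -5.26, and in HK -1.72, -3.21, -0.84 and -0.31. The groups overlapped, with HC replicate 5 lowest of all. The log2 differences were 0.57 (SE 1.00) in HC-NC and 0.92 (SE 0.92) in HK-HC, and 1.28 (SE 0.86) and 0.22 (SE 0.79) without HC replicate 5. GRP did not meet the criterion in any of the 4 comparisons.

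NPPC and BRS3 had r = 0.75 and rho = 0.77 over 16 arrays, r = 0.61 after removal of group means, and r = 0.85 over 15 arrays without HC replicate 5. BRS3 was not well above background on 6 of the 16, and over the other 10 arrays r was 0.48 and rho 0.43. Both genes were chosen on their HK minus NK difference, so part of this relation was set by the choice. It is a description of arrays that share groups and slides. SST had r = -0.25 with NPPC and 0.26 with BRS3 over 16 arrays, and 0.62 and 0.75 without HC replicate 5. That array, lowest for SST and highest for NPPC, thus set the sign of the first relation.

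**Figure D5:**
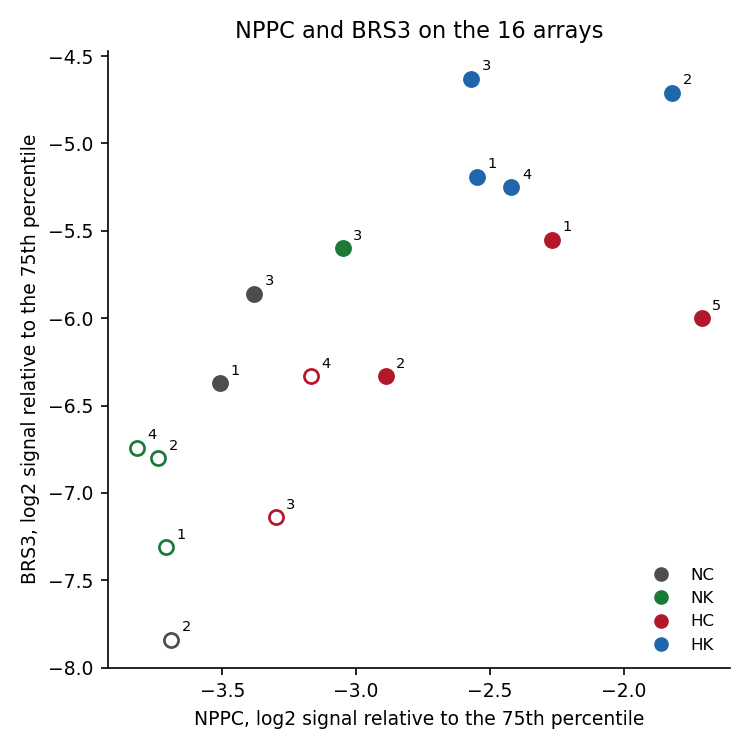
Log2 signal relative to the 75th percentile of NPPC (horizontal axis) and BRS3 (vertical axis) on the 16 arrays, by group and replicate number, with open points where BRS3 was not well above background. The 4 HK arrays lie at the upper right, the NK arrays other than replicate 3 at the lower left, and HC replicate 5 at the right with a BRS3 level of -6.00.

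The named genes most like each of the 3 were found among 878 others by the correlation of log2 levels over the 16 arrays. For SST they were KRT27, a hair follicle keratin, at r = 0.94, the neuropeptide Y receptor NPY1R, the receptor SSTR2 and the growth factor AREG at 0.81 each, and the receptor SSTR1 at 0.80. Most of these rested on HC replicate 5: without it r was 0.70 for KRT27, 0.25 for NPY1R, -0.17 for SSTR2, -0.05 for AREG and 0.25 for SSTR1. For NPPC they were DIRAS3, a small GTPase, at 0.86, CD1D, which presents lipids to T cells, at 0.81, the sialyltransferase ST3GAL4 at 0.79, and LOC443442 and the transcription factor ISL1 at 0.78. Without that array r was 0.81, 0.86, 0.85, 0.74 and 0.71. After removal of group means it was 0.81, 0.54, 0.53, 0.77 and 0.92, in the same order. LOC443442 and ISL1 were well above background on 3 and 9 of 16 arrays. For BRS3 they were FST, which binds activin, and CRHBP, which binds corticotropin-releasing hormone, at 0.77, the estrogen receptor ESR1 and LOC443167 at 0.76, and NPPC at 0.75, all with the 6 arrays on which BRS3 was not well above background. After removal of group means r was 0.63, 0.48, 0.79, 0.67 and 0.61, in the same order.

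Other peptide genes were read at the same criterion. Of 39 neuropeptide precursors 13 had probes and 10 were tested, and 0 were higher and 0 lower in HC-NC, NK-NC and HK-NK, where 4.54%, 0.710% and 2.81% of all probes tested were higher and 6.27%, 1.07% and 2.46% lower. In HK-HC, where 2.86% of all probes tested were higher and 1.87% lower, 1 of the 10 was higher: ADCYAP1, the precursor of the neuropeptide PACAP, by 1.98 on the log2 scale (SE 0.90, limma adjusted p = 0.969), with overlapping groups. ADCYAP1 was at 1.66 (SE 0.94) without HC replicate 5 and no longer called. EDN1, the precursor of endothelin, was then higher in HC-NC by 1.16 and in HK-NK by 0.79, as were 555 and 392 of 12543 probes. The median log2 difference of the list was -0.08, 0.14, 0.09 and 0.04 in HC-NC, NK-NC, HK-HC and HK-NK, against -0.03, 0.00, 0.02 and -0.01 over all probes tested.

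Of 48 neuropeptide receptors 12 had probes and 8 were tested. AGTR1, the angiotensin II receptor, was higher by 1.16 on the log2 scale in HC-NC (SE 0.36, limma adjusted p = 0.235) and by 0.99 in HK-NK (SE 0.35, limma adjusted p = 0.900). It was the 1 receptor of 8 called in each, with 0 lower, where 4.54% and 2.81% of all probes tested were higher. Its HC and NC arrays lay apart, as for 7.75% of all probes tested. GHRHR, the receptor of growth hormone-releasing hormone, was the 1 called in NK-NC, where 0.710% of all probes tested were higher. It was well above background on 3 of 4 NK and 0 of 3 NC arrays and at least 1.40-fold higher in NK (limma adjusted p = 1.00), a bound in which each NC array takes the dimmest signal it could measure, or the signal of GHRHR itself if larger. In HK-HC 0 were higher and 0 lower, where 2.86% of all probes tested were higher and 1.87% lower. AGTR1 and GHRHR stayed called without HC replicate 5, and NPY2R, a neuropeptide Y receptor, was then also called lower in HK-NK, at an unchanged -1.17, as were 401 of 12543 probes. Of 11 genes for peptide processing and secretion, CPE, a carboxypeptidase that trims peptide precursors, was the 1 tested, with log2 differences of -0.29, -0.05, 0.18 and -0.06 in HC-NC, NK-NC, HK-HC and HK-NK.

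Other lists were read for the makeup of the tissue. Of 7 choroid plexus markers 4 were tested and 0 were called in HC-NC, where 4.54% of all probes tested were higher and 6.27% lower. The same shares hold for the other lists of this paragraph in HC-NC. The summed linear signal of the choroid plexus list ran from 0.930 to 85.4 over the arrays, carried by TTR, the transthyretin that choroid plexus secretes. Of 5 meninges and mesenchyme markers 2 were tested, with a median log2 difference of -0.29 in HC-NC and 0 called. Of 8 hypothalamus markers 3 were tested, with a median of -0.08 and 0 called. Of 13 immediate early genes 5 were tested, with a median of 0.31 and 0 called; without HC replicate 5 JUNB and CREM were higher there, as were 555 of 12543 probes, and lower in HK-HC, as were 343. None of 6 oligodendrocyte markers had a probe with a gene name, so that cell type was not followed.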

How the data were processed

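The authors deposited the scanner output of 16 one-color Agilent sheep arrays, with 1 array per fetus. Per the file headers, Feature Extraction 10.1.1.1 gave the intensity of each spot, background-subtracted and detrended within the array and not normalized between arrays, and other marks of 0 or 1 for spots well above background, outlying or saturated. A log2 value table that the authors deposited, whose normalization is not given in the sources used here, served as an alternative; its values rank the spots of each array as mean signal minus local background does (rho = 1.00). Its scale is log2 per its range and its centring is not stated. The submitters' processing notes name limma and R 2.15.1.

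Processed intensities were put on the log2 scale and lowered by the 75th percentile of their array, computed without control spots. Controls and outlying spots (0.0736%) were left out, spots of 1 probe were averaged, and no spot of SST, NPPC or BRS3 was marked as outlying or saturated. Tests covered 12543 of 15008 probes, those with 3 or more of 16 arrays well above background. Gene names came from accessions matched to a RefSeq gene table of the ARS-UI_Ramb_v3.0 assembly (726 probes), from symbols, synonyms and descriptions (533), and otherwise from the files (397), for 1656 probes. A gene is represented by its brightest probe. SST is called SRIF and BRS3 BRS-3 in the files.

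One limma 3.58.1 fit in R 4.3.3 over the 4 groups gave each comparison by its moderated test, two-sided, with Benjamini-Hochberg adjustment over all probes tested. The criterion, an unadjusted p under 0.05, follows the study's methods, which name no adjustment. The fit was tested on simulated data. Exact permutation tests were run for the 2 differences that share no array with the choice of the gene. Same-numbered arrays of NC and NK, and of HC and HK, partly deviated together. These differences are therefore not fully independent of the choice. The members and the lists were chosen with earlier results of these data known. Named genes are all probes of the 3 genes, list genes past the criterion, all genes of the 3 peptide systems, and the 5 genes most correlated with each. Other genes were named after their values were seen, as were the values without HC replicate 5 given for lists, correlations and GRP, and the correlation over arrays with BRS3 well above background.

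Alternatives were normexp correction of the background (offset 50), normalization by quantiles, the deposited log2 values, other filters on dim probes, slide or replicate number as a block, each slide alone, only the 2 groups compared, and leaving out each array. Whether replicate numbers, taken from the labels, mark pairs was checked by correlating deviations from group means over probes. For NC with NK of the same number r was 0.37, 0.31 and 0.21, against a mean of -0.10 for unlike numbers and -0.01 for unlike numbers on the same slide. For HC with HK it was 0.40, 0.31, 0.07 and 0.12 (-0.06 for unlike numbers, 0.02 for those on the same slide). For NC with HC it was 0.08, 0.13 and 0.04, and for NK with HK 0.03, 0.16, 0.12 and 0.26. Arrays of the same number also shared a slide and a row on it, so this check cannot tell paired fetuses from array position.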

Additional observations from a re-analysis of the deposited data

Results flagged for a closer look

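In 3 of 18 sets of arrays examined, a group of 4 or 5 arrays by 1 probe, a single array lay far from the rest of its group, measured by its gap to the nearest array over the range of the group. The limit is one that about 5% of independent sets pass by chance. These sets are not independent, and they include arrays on which SST and NPPC were chosen, so the number of sets past the limit is a description. The log2 level of SST on HC replicate 5 was 1.86 with the brightest probe, where the nearest HC array was at 4.20 and the gap took 0.74 of the range. The other SST probe, which shares 59 of its 60 bases, gave 1.78 there against 4.06, a gap of 0.75 of the range, so both are 1 event. For NPPC, NK replicate 3 stood above the other NK arrays with the brightest probe, at -3.05 on the log2 scale against -3.71 for the nearest, 0.85 of the range. The other NPPC probe gave -3.22 there against -3.67, a gap of 0.64 that did not pass the limit. Neither array was saturated or marked as an outlier at these spots.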

How the results depend on the processing

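The higher NPPC level in HC than NC kept its direction under all alternatives run, and its side of the criterion under 8 of 12, single arrays left out not counted. It missed the criterion with normexp background correction (log2 difference 0.93), with the authors' deposited values (0.27), within the second slide (0.65) and in the exact permutation test (0.86); the cause was not tested. Leaving out single arrays gave 0.62 to 1.01. The SST difference of HK minus NK was on the same side under 11 of 12 alternatives and passed the criterion with only the 2 groups compared (0.40), a fit that leaves out HC replicate 5. Leaving out single arrays gave 0.28 to 0.55. The SST difference of HC minus NC changed sign within the first slide, at 0.07, which does not hold HC replicate 5. With the replicate block, the differences of NPPC in HC-NC and SST in HK-NK were 0.68 and 0.40, on the same side of the criterion as without it; with the random replicate block that of SST was 0.21. The NPPC difference of HK minus NK was 0.60 with normexp and 0.40 with the deposited values.

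Counts of probes past the criterion, 1356, 223, 594 and 660 in HC-NC, NK-NC, HK-HC and HK-NK, moved most with the adjusted threshold, to 2, 0, 0 and 0, and with normexp, to 585, 18, 92 and 73. Normexp moved the median log2 difference of all probes to 0.34, 0.28, 0.05 and 0.08. Within the second slide HC-NC had 706 and HK-NK 289, with the filter at all 16 arrays NK-NC had 147. With the replicate block HK-HC had 1055 and HK-NK 1068, and with the random replicate block NK-NC had 439 and HK-HC 1199. Leaving out single arrays gave 956 to 1633, 176 to 317, 409 to 1071 and 497 to 815. Over the 10 arrays with BRS3 well above background its r with NPPC was 0.48 in place of 0.75.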

Other observations

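TTR, the transthyretin made by choroid plexus, differed strongly between arrays. The summed linear signal of the choroid plexus markers was 85.4, 71.6, 42.0 and 50.9 on replicate 2 of NC, NK, HC and HK, 78.1 on HC replicate 5 and 35.5 on HK replicate 4. The other 10 arrays lay between 0.930 and 8.85. Arrays of 1 replicate number thus shared a high value in all 4 groups, and they also shared a slide and a row on it. The NPPC levels of replicate 2 were -3.69, -3.74, -2.89 and -1.82 on the log2 scale in the same order, the SST levels were 4.67, 4.60, 4.51 and 5.07, and those of HC replicate 5 were -1.71 for NPPC and 1.86 for SST. The relation of these levels to the marker was not tested, and the source of the difference was not tested either.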
